A study of Mus musculus with 16 samples.

Results

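Immediate early genes are the first genes that cells transcribe after a growth factor or synaptic stimulus, without the need for new protein. Many of them are classical targets of serum response factor (SRF), which binds a CArG box and, with the ternary complex factors (TCFs) Elk1, Elk3 and Elk4 that ERK phosphorylates, drives their transient expression. SRF works on another set of genes with the myocardin-related factors (MRTFs), and those genes mostly encode the actin cytoskeleton. A total of 10 immediate early genes were chosen by name for their role, not by their values: the AP-1 subunits *Fos*, *Fosb*, *Jun* and *Junb*, the zinc finger factors *Egr1*, *Egr2* and *Egr3*, the nuclear receptor *Nr4a1*, the nuclear protein gene *Ier2* and the synaptic gene *Arc*. All 10 are among the 35639 genes of the deposited TPM table, and 7 of them are among the 15451 genes of the deposited table of gene values. *Fosb*, *Egr2* and *Egr3* are only in the first of these.

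The study deleted *Srf* in neural crest cells, which form most of the mesenchyme of the face, and measured polyadenylated RNA of whole facial tissue. There were 8 mouse embryos at E11.5, and each gave 1 library of the frontonasal prominence (FNP, the medial and lateral nasal processes together) and 1 of the mandible, 16 libraries in all. The 4 mutants (embryos 3 to 6) had the genotype Srf flox/flox; Wnt1-Cre, and all 8 embryos carried at least 1 floxed *Srf* allele. The 4 controls were of mixed genotype: embryos 1 and 7 had Srf flox/+; Wnt1-Cre and thus the Cre as well, whereas no Cre was present in embryo 2 (Srf flox/flox) or embryo 8 (Srf flox/+). The deposited design table puts embryos 1 to 5 in one litter, here called the first, and the other 3 in the second, which held 1 mutant. The Wnt1 promoter drives the Cre in the neural crest and parts of the neural tube, so epithelium, vessels and blood in the same pieces of tissue kept *Srf*.

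Levels are in TPM, which the authors scaled once more for each library and which are per length and so can be compared between genes. Tests used the gene values, the authors' read estimates after size factor scaling, which sum to 10.2 to 11.2 m per library. The reads behind a gene cannot be read from either table, so precision is judged from the spread between embryos. Mutants were compared with controls by limma on log2(gene value + 0.5), with litter as covariate and, in the joint model of 16 libraries, tissue, leaving out genes that did not reach a value of 10 in 4 libraries. A call needed an adjusted p (Benjamini-Hochberg, over all genes tested) of 0.05 or less, and the log2 fold changes of low genes are understated on this scale.

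*Srf* itself stood at 34.7 to 75.2 TPM in the control FNPs and 11.8 to 14.7 TPM in the mutant FNPs, and at 34.4 to 65.9 and 10.8 to 14.1 TPM in the mandibles. In each tissue every mutant library was below every control library (two-sided exact permutation test, p = 0.0286, the smallest that 4 embryos against 4 can give). The 5 neural crest mesenchyme markers *Twist1*, *Prrx1*, *Prrx2*, *Pdgfra* and *Msx1* summed to between 1191 and 1857 TPM in every library, and 0 of them were at 0.

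The stretches before the start sites show which response elements lie close to the genes. They are printed for the members matched, except *Fosb*, and for SRF targets used for comparison. Start site windows of 250 bases before to 50 after the start were matched for 6 of the 10 members in RefSeq on GRCm38.p6: *Fos*, *Fosb*, *Jun*, *Junb*, *Egr2* and *Nr4a1*. The CArG box, searched on both strands, is in 1.63% of all 32851 windows of this length. It is in the windows of *Srf*, *Actg1* and *Vcl*, which served here as SRF-MRTF targets for comparison, and among the matched members only in windows of *Egr2*. In the 5 sequences below the capitals mark the CArG boxes, with 10 bases on each side.
*Srf*, chr17:46556205-46556254, minus strand: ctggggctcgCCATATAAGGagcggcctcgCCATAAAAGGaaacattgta
*Actg1*, chr11:120348566-120348595, minus strand: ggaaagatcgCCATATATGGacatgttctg
*Vcl*, chr14:20929161-20929190, plus strand: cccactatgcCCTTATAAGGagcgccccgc
*Egr2*, chr10:67537484-67537513, plus strand: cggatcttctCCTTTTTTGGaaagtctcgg
*Egr2*, chr10:67537787-67537816, plus strand: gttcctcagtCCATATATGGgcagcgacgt
The boxes of *Srf* begin 82 and 62 bases before the start, that of *Actg1* 90 and that of *Vcl* 227, all upstream of the transcripts annotated in GENCODE vM21. Those of *Egr2* belong to RefSeq starts inside the gene, each 72 bases before a start, and lie in an intron of a longer transcript.

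The 160 bases before the starts of *Fos*, *Jun*, *Junb* and *Nr4a1* hold no CArG box, and neither do their whole windows. Capitals mark 2 other elements: TGACG, the core of the cAMP response element bound by CREB, in 20.8% of all windows, and TGACATCA, a variant AP-1 site, in 3.62%. Both were searched on both strands, so that TGACG can stand as CGTCA, and they do not overlap each other.
*Fos*, chr12:85473730-85473889, plus strand: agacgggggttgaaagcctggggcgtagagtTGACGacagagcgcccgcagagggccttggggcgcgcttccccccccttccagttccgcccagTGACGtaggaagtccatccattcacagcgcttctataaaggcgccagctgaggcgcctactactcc
*Jun*, chr4:95052223-95052382, minus strand: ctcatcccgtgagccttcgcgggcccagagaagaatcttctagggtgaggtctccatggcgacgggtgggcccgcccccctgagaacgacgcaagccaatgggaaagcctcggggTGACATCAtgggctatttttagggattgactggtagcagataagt
*Junb*, chr8:84978749-84978908, minus strand: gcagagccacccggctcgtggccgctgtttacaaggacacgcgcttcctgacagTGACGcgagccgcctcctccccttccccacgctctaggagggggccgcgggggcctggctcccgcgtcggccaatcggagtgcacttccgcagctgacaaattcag
*Nr4a1*, chr15:101266686-101266845, plus strand: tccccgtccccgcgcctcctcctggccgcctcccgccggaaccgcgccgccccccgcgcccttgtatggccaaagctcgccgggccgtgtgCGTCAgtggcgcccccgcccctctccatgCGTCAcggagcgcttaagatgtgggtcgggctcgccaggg
TGACG occurs 2 times in the window of *Fos*, 129 and 66 bases before the start, once in those of *Fosb* and *Junb*, and 4 times in that of *Nr4a1*. The *Jun* window holds 0 of it. A match says that these letters are there and nothing about binding, and sites outside the windows, such as the distal serum response element for which *Fos* is known, were not searched.

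The levels of the 10 genes spanned 3 classes. *Ier2* and *Jun* were abundant, with means over the 16 libraries of 94.4 and 53.9 TPM and ranges of 63.3 to 131 and 32.4 to 76.6 TPM. *Nr4a1* (mean 7.42 TPM), *Junb* (7.17 TPM), *Egr1* (3.75 TPM) and *Fos* (2.38 TPM) formed a middle class. *Arc* (0.320 TPM), *Fosb* (0.309 TPM), *Egr3* (0.213 TPM) and *Egr2* (0.0639 TPM) were close to 0, and *Egr2* was listed at 0 in 4 libraries. Pooled over all libraries, the neighbours *Nr4a1* and *Junb* overlapped over most of their ranges, 4.77 to 10.4 and 3.07 to 11.0 TPM. So did *Arc* and *Fosb*, at 0.0684 to 0.643 and 0.0220 to 0.955 TPM, but their order depended on the group. In control FNPs *Arc*, at 0.519 to 0.643 TPM, was above *Fosb*, at 0.0625 to 0.219 TPM. In mutant mandibles *Arc*, at 0.0684 to 0.131 TPM, was below *Fosb*, at 0.224 to 0.689 TPM. They overlapped in the other groups, and levels were not tested between members. *Fos*, the prototype of the class, thus stood on average more than an order of magnitude below *Jun*, its partner in AP-1.

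**Figure D1:**
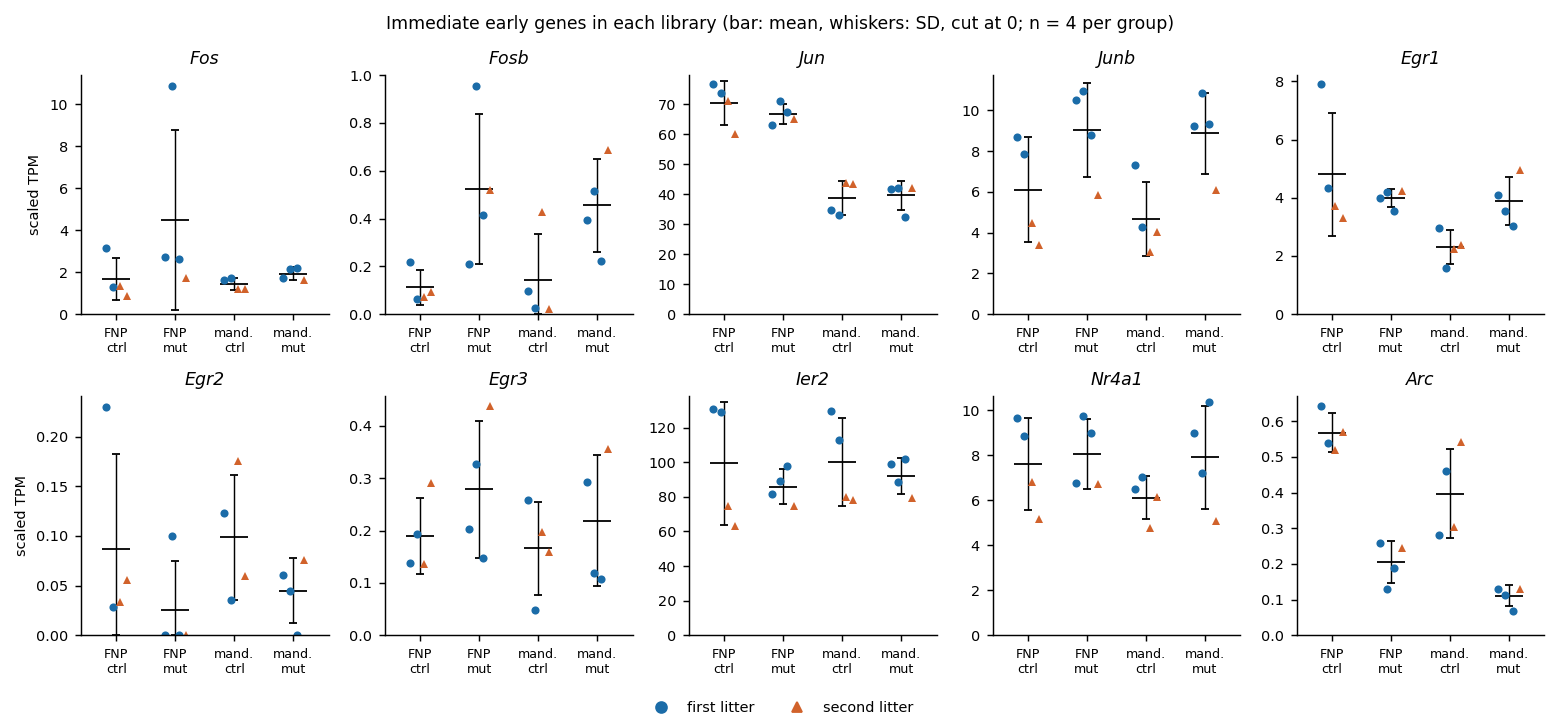
Scaled TPM (vertical axes, each from 0) of the 10 immediate early genes in the 16 libraries, by tissue and genotype group (ctrl, control; mut, mutant; mand., mandible), with the group mean and SD of 4 embryos and the litter as colour and shape. All mutant libraries lie below all control libraries of their tissue for *Arc*, *Jun* is higher in every FNP (60.1 to 76.6 TPM) than in any mandible (32.4 to 43.8 TPM), and in *Fos* 1 mutant FNP at 10.9 TPM stands apart.

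The first question was how these genes responded to the loss of *Srf*. In the joint model 2 of the 7 members tested were called, against 1.33% of all 14630 genes: *Junb* was higher in mutants (0.294% of all genes were called higher) and *Arc* was lower (1.04% were called lower). The 16 libraries are 8 embryos sampled in both tissues, and this model does not tie the 2 libraries of an embryo. With the embryo as a random block *Arc* alone was called (limma, adjusted p = 0.00487), and with the tissues summed per embryo 0 members were (limma, adjusted p = 0.0813 for *Arc* and 0.154 for *Junb*). The other 5 members did not pass, with log2 fold changes from -0.28 for *Ier2* to 0.62 for *Fos*. Over the 7 members the median log2 fold change was 0.07, beside 0.00193 over all genes. In bulk tissue, fewer cells of a type and less RNA per cell cannot be told apart, and this holds for every difference given here.

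*Arc* encodes a protein of the postsynaptic density that regulates AMPA receptors, and in neurons its transcription depends in part on SRF. The gene lies on chromosome 15 of GRCm38 from 74669083 to 74672570. In the FNP it stood at 0.643, 0.539, 0.519 and 0.569 TPM in control embryos 1, 2, 7 and 8, and at 0.258, 0.131, 0.189 and 0.244 TPM in mutants 3, 4, 5 and 6. Mandibles of the controls had 0.281, 0.460, 0.304 and 0.542 TPM and the mutants 0.130, 0.114, 0.0684 and 0.131 TPM, in the same order. Every mutant library was below every control library in both tissues, a separation that 0.226% of the 14630 genes showed. In the FNP alone it was shown by 1.62% of 14197 genes, and in the mandible by 0.957% of 14004 genes, among which *Arc* was not.

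The mean of *Arc* in mutants was 36.2% of that in controls in the FNP (0.205 ± 0.0580 against 0.568 ± 0.0543 TPM, SD, n = 4) and 27.9% in the mandible (0.111 ± 0.0292 against 0.397 ± 0.125 TPM). In the joint model the log2 fold change was -1.55 (SE 0.231, limma, Benjamini-Hochberg adjusted p = 0.00236). The call was lost with either pair of controls alone: the adjusted p was 0.168 against the 2 controls with Cre and 0.0541 against the 2 without, with log2 fold changes of -1.37 and -1.70, and it was 0.0813 with the tissues summed per embryo. In the FNP alone the log2 fold change was -1.45 (SE 0.315), with a limma adjusted p of 0.179, and in the mandible, where *Arc* was below the filter, the two-sided exact permutation test on TPM gave p = 0.0286, the smallest possible.

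*Arc* passed the filter on low values only through controls, of which 4 were FNPs and 2 were mandibles, and no mutant library reached the filter value. Its gene values were 16.7 to 20.9 in control FNPs and 4.15 to 8.20 in mutant FNPs, and 9.21 to 17.4 and 2.16 to 4.24 in the mandibles, which are low for a tested gene. With no filter on the 15451 genes the joint log2 fold change was the same, -1.55, with a limma adjusted p of 0.00108. Those genes are themselves a part of the 35639 in the TPM table and leave out *Fosb*, a member of similar level. Whether *Arc* is among them only through its controls cannot be told, so this fit need not remove that choice. The 12 neuronal markers summed to 160 to 222 TPM in mutant FNPs and 122 to 194 TPM in control FNPs, and to 38.3 to 42.9 and 37.2 to 47.8 TPM in the mandibles, with 0 of them at 0. None of the 12 was called by limma in the joint model, where 1 had an unadjusted p under 0.05 (*Syt1*, higher), nor of the 9 tested in the mandible, where 1 had (*Tubb3*, log2 fold change -0.65, limma adjusted p = 0.560). The part of neurons in the fall of *Arc* was not tested.

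*Junb* encodes an AP-1 subunit that can restrain c-Jun. The gene lies on chromosome 8 from 84974484 to 84978718. In the FNP it stood at 8.70, 7.86, 4.47 and 3.37 TPM in control embryos 1, 2, 7 and 8, and at 10.5, 11.0, 8.77 and 5.87 TPM in mutants 3, 4, 5 and 6. Mandibles of the controls had 7.31, 4.27, 3.07 and 4.06 TPM and the mutants 9.25, 10.8, 9.31 and 6.09 TPM. The groups overlapped in both tissues, where the lone mutant of the second litter, embryo 6, lay below control embryo 1 of the first. Within each litter and tissue every mutant was above every control, as for 0.718% of all genes tested.

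The joint log2 fold change of *Junb* was 0.57 (SE 0.123, limma, Benjamini-Hochberg adjusted p = 0.0296), a 1.49-fold higher level. With the embryo as a random block for its 2 libraries the adjusted p was 0.0553. The call was also lost without litter in the model (adjusted p = 0.328), against the controls with Cre (0.251) or those without (0.0685) alone, and without any 1 of embryos 2, 3, 4, 6 and 7, where the limma adjusted p was 0.0553 to 0.153 and the log2 fold change 0.47 to 0.59. In all it held in 10 of 22 other settings. The estimate was 0.37 (SE 0.132, limma, adjusted p = 0.277) in the FNP and 0.77 (SE 0.181, limma, adjusted p = 0.436) in the mandible.

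Macrophages and endothelium also express *Junb*. The 10 macrophage markers summed to 31.1 to 37.2 TPM in mutant mandibles and 24.4 to 31.6 TPM in control mandibles, and to 38.3 to 46.6 and 29.4 to 42.5 TPM in the FNPs. The 10 endothelial markers summed to 225 to 247 TPM in mutant FNPs and 198 to 239 TPM in control FNPs, and to 221 to 244 and 211 to 235 TPM in the mandibles. None of either list was at 0, 1 of the 9 macrophage genes tested (*C1qa*, log2 fold change 0.75, limma adjusted p = 0.0442) and 0 of the 10 endothelial genes were called in the joint model, and the part of these cells in the level of *Junb* was not tested.

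*Fos* and *Fosb* encode the other AP-1 partners of the Jun proteins, and *Fos* is the best known TCF-SRF target. *Fos* lies on chromosome 12 from 85473890 to 85477273. In the FNP it stood at 3.16, 1.28, 1.35 and 0.885 TPM in control embryos 1, 2, 7 and 8, and at 2.71, 10.9, 2.63 and 1.73 TPM in mutants 3, 4, 5 and 6. Mandibles of the controls had 1.61, 1.72, 1.22 and 1.21 TPM and the mutants 1.70, 2.17, 2.21 and 1.62 TPM. The groups overlapped in both tissues, and no mutant library was below the lowest control library. The library of embryo 4 that stood apart in the FNP was ordinary in the mandible.

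The joint log2 fold change of *Fos* was 0.62 with a 95% interval from -0.03 to 1.27 (limma, adjusted p = 0.308), and it was 0.40 without embryo 4. *Fos* reached the filter value in all 8 mutant libraries and in 3 control libraries, so it was tested in part because mutants were high. With no filter the joint interval was -0.02 to 1.26 (limma, adjusted p = 0.311). In the FNP alone the estimate was 0.91 (SE 0.508, limma, adjusted p = 0.464), and it was 0.50 without embryo 4, 0.53 without embryo 2 and 0.40 against the controls with Cre. For the mandible it was 0.33 (SE 0.293, limma, adjusted p = 0.801).

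*Fosb* had 0.219, 0.0625, 0.0739 and 0.0924 TPM in control FNPs 1, 2, 7 and 8 and 0.211, 0.955, 0.415 and 0.519 TPM in mutant FNPs 3, 4, 5 and 6. Its mandible levels were 0.0955, 0.0263, 0.426 and 0.0220 TPM in the controls and, in the mutants, 0.393, 0.515, 0.224 and 0.689 TPM. In each tissue 1 control library reached into the range of the mutants. The difference in means was 0.413 TPM in the FNP (two-sided exact permutation test, p = 0.0571) and 0.313 TPM in the mandible (p = 0.0857), neither of which passed 0.05. In settings added after the data were seen, the exact p in the FNP was 0.0286 with the TPM scaled to equal library totals and without embryo 3, and the difference was 0.269 TPM without embryo 4. This test has no term for litter. Within each litter the mutant mandibles were above the control mandibles, while in the FNP a mutant and a control of the first litter crossed (0.211 and 0.219 TPM). With labels permuted within litters the exact p was 0.133 in the FNP and 0.0667 in the mandible, where the 30 arrangements allow 0.0333 at the lowest.

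*Egr1* encodes a zinc finger factor that responds to ERK through several serum response elements. In the FNP it stood at 7.92, 4.32, 3.71 and 3.30 TPM in control embryos 1, 2, 7 and 8, and at 3.99, 4.19, 3.53 and 4.23 TPM in mutants 3, 4, 5 and 6. Mandibles of the controls had 2.98, 1.57, 2.25 and 2.39 TPM and the mutants 4.08, 3.55, 3.02 and 4.94 TPM. In TPM the mutants lay inside the range of the controls in the FNP and above it in the mandible, where the gap was narrow. In gene values the mandible groups overlapped: the highest control, at 117.4, was above the lowest mutant, at 117.2. The share of all genes with such a separation in TPM was not computed.

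The log2 fold change of *Egr1* was -0.29 in the FNP (SE 0.216, limma, adjusted p = 0.593) and 0.82 in the mandible (SE 0.202, limma, adjusted p = 0.482). The mandible estimate had an unadjusted p of 0.00231, ranked 66 of 14004 genes, and without embryo 1 its adjusted p was 0.0476, with a log2 fold change of 1.11. In a separate fit of all 16 libraries with 1 litter term for both tissues, the difference between the tissues was 0.95 (SE 0.340, unadjusted p = 0.0131, adjusted p = 0.999, limma interaction term), so a different response of the tissues was not called, and 0 of the 7 members were called for the interaction, as were 0 of all 14630 genes (638 had an unadjusted p under 0.05). In that test 1 member, *Egr1*, had an unadjusted p under 0.05.

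*Egr2* specifies hindbrain segments and Schwann cells, and *Egr3* acts in muscle spindles and neurons. *Egr2* was listed at 0 in mutant FNPs 3, 5 and 6 and in mutant mandible 5, and no control library was listed at 0. Its highest libraries were control FNP 1 at 0.230 TPM and control mandible 7 at 0.175 TPM. The groups overlapped, and the exact permutation test gave p = 0.371 in the FNP and 0.257 in the mandible. For *Egr3* the controls had 0.0479 to 0.291 TPM and the mutants 0.107 to 0.438 TPM over both tissues, and the exact p was 0.229 in the FNP and 0.514 in the mandible. Neither a rise nor a fall was detectable at these levels.

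*Ier2* encodes a small nuclear protein of the growth factor response and was the most abundant member. The gene lies on chromosome 8 from 84661331 to 84662852. In the FNP it stood at 131, 129, 74.5 and 63.3 TPM in control embryos 1, 2, 7 and 8, and at 81.7, 89.2, 97.9 and 74.5 TPM in mutants 3, 4, 5 and 6. Mandibles of the controls had 130, 113, 80.0 and 77.9 TPM and the mutants 98.7, 88.7, 102 and 79.1 TPM. The 2 controls of the first litter were the highest libraries in each tissue, and the 2 of the second litter were near the mutant of that litter.

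The joint log2 fold change of *Ier2* was -0.28 (SE 0.0804, limma, Benjamini-Hochberg adjusted p = 0.0958) and was not called. In the first litter alone it was -0.46 (limma, adjusted p = 0.0128), and every mutant there was below every control in both tissues, as for 5.85% of all genes tested. Without embryo 6, the lone mutant of the second litter, the estimate is by construction that of the first litter (adjusted p = 0.00634). It was also called without embryo 8 (adjusted p = 0.0432). Whether the response of *Ier2* differed between the litters was not tested, since the second holds 1 mutant.

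*Jun* encodes the main partner of Fos in AP-1, and *Nr4a1* an orphan nuclear receptor that immune and neural cells induce rapidly. *Jun* stood at 76.6, 73.6, 71.1 and 60.1 TPM in control FNPs 1, 2, 7 and 8 and at 63.2, 71.1, 67.5 and 64.9 TPM in mutant FNPs 3, 4, 5 and 6. The groups overlapped, as they did in the mandible, and the joint log2 fold change was -0.02 with a 95% interval from -0.18 to 0.14 (limma, adjusted p = 0.912). This is the tightest interval of the 7 members. *Nr4a1* stood at 4.77 to 9.64 TPM in controls and 5.07 to 10.4 TPM in mutants over both tissues, with a joint log2 fold change of 0.07 and an interval from -0.16 to 0.31 (limma, adjusted p = 0.772).

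**Figure D2:**
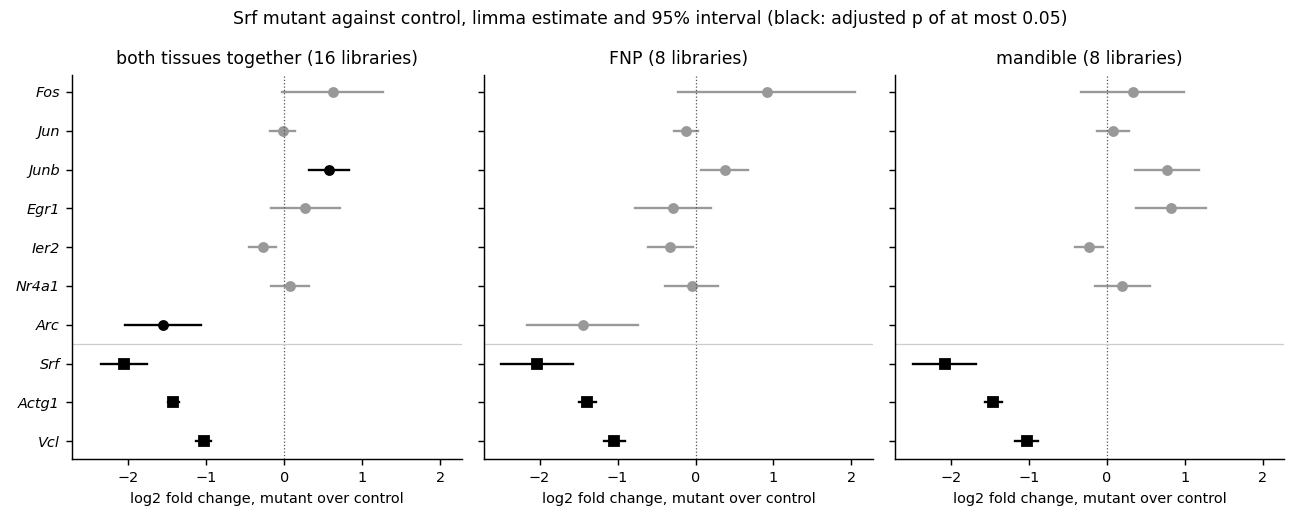
Log2 fold change of mutants over controls (horizontal axis) with its 95% interval from limma for the 7 members tested (circles) and for *Srf*, *Actg1* and *Vcl* (squares), in the joint model, the FNP and the mandible, black where the adjusted p was at most 0.05. *Junb* (0.57) and *Arc* (-1.55) are the members in black, in the joint model alone, and *Arc* was below the filter in the mandible.

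Tested alone, neither tissue gave a called member. In the FNP 0 of 7 members passed limma at an adjusted p of 0.05, where 0.106% of 14197 genes did, and 3 had an unadjusted p under 0.05, beside 13.7% of all genes, *Junb* higher and *Ier2* and *Arc* lower. Of the 6 tested in the mandible 0 passed, where 14 of 14004 genes (0.10%) did, and 3 had an unadjusted p under 0.05, beside 7.20% of all genes, *Junb* and *Egr1* higher and *Ier2* lower. The members were thus spread in both directions in each tissue.

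Among 40 other immediate early genes 36 were tested, and 0 were called in the joint model, in the FNP or in the mandible by limma. At an unadjusted p under 0.05, 9 were higher and 2 lower in the joint model, where 17.4% of all genes had such a p, with a median log2 fold change of 0.10 beside 0.00193 over all genes. The lower ones were *Ccn1* (-0.62, SE 0.167, limma, adjusted p = 0.0791) and *Ccn2* (-0.34, SE 0.138, adjusted p = 0.215), matricellular genes that MRTF and YAP also drive, and the higher one of smallest p was *Nfkbiz* (0.30, SE 0.0781, adjusted p = 0.0633). These 3 were named after their values were seen.

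The MRTF-SRF cytoskeletal genes serve as a comparison. This list was chosen with earlier results of these data known. It holds genes that the paper names among its most changed, *Actg1* and *Vcl* among them. The counts are thus partly set by that choice and give no independent contrast to the immediate early genes. Of 23 tested, 13 were lower and 0 higher in the joint model, 9 were lower in the FNP and 10 in the mandible. Over all genes, 1.04% were called lower in the joint model, 0.106% in the FNP and 14 of 14004 in the mandible. The median joint log2 fold change of the list was -0.38. *Actg1* had a joint log2 fold change of -1.42 (SE 0.0321) and *Vcl* of -1.04 (SE 0.0456). *Actg1*, cytoplasmic gamma-actin, had 2683 to 3292 TPM in control FNPs and 1099 to 1238 TPM in mutant FNPs, and *Vcl*, vinculin, 41.0 to 49.0 and 21.5 to 23.1 TPM. Every mutant library was below every control library for both genes in each tissue. Among *Srf* and its 6 TCF and MRTF cofactors, *Srf* was the lone gene called. *Mrtfb* was just short of a call in the joint model (log2 fold change -0.24, limma, adjusted p = 0.0509). With *Srf* counted, 2 genes of this list were lower and 2 higher there at an unadjusted limma p under 0.05. Of the ERK cascade genes 0 of 17 were called, of the ERK feedback genes 0 of 14, of the CREB family genes 0 of 8, and of the EGR corepressors and AP-1 partners 0 of 11, each list with 2 genes at an unadjusted limma p under 0.05.

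The second question was whether the members differed between the tissues of the same embryos. In the main fit, which has no term for the embryo, *Jun* and *Arc* were lower in the mandible, 2 of the 7 members tested. Beside them 17.8% of all genes were called lower and 29.7% in either direction, so the count is near the background. With the embryo as a fixed block *Jun* and *Arc* stayed called, and *Egr1* was called as well. *Jun* had 34.8, 33.0, 43.8 and 43.5 TPM in control mandibles 1, 2, 7 and 8 and 41.7, 42.1, 32.4 and 42.2 TPM in mutant mandibles 3, 4, 5 and 6. All 8 embryos had more *Jun* in the FNP, and no mandible library reached the lowest FNP library. The log2 difference, mandible minus FNP, was -0.81 (SE 0.0736, limma, Benjamini-Hochberg adjusted p = 1.76e-07).

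For *Arc* the difference was -0.67 (SE 0.223, limma, adjusted p = 0.0311), higher in the FNP in 8 of 8 embryos, and the call was lost without any 1 of embryos 1, 3, 5, 6 and 7, with adjusted p up to 0.102. The 12 neuronal markers, of which 10 were called lower in the mandible, summed to 122 to 222 TPM in the FNPs and 37.2 to 47.8 TPM in the mandibles, and their part in the level of *Arc* was not tested. *Egr1* was at -0.53 (SE 0.202, limma, adjusted p = 0.0590), higher in the FNP in 6 of 8 embryos, and with the embryo as a fixed block its adjusted p was 0.0399. The ERK feedback genes, which report FGF signalling, were called lower in the mandible in 13 of 14 cases and higher in 0, with a median log2 difference of -0.82. Of the 36 other immediate early genes 12 were called lower and 0 higher. The share over all genes was 17.8% called lower and 11.9% called higher, so many genes outside these lists differed as well.

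The third question was how far the litter moved these genes. Of the 7 members 3 were lower in the second litter and 0 higher, beside 15.2% of all 14630 genes called lower and 26.1% called in either direction: *Junb*, *Ier2* and *Nr4a1*. The difference, second minus first, was -0.83 for *Junb* (SE 0.127, limma, Benjamini-Hochberg adjusted p = 0.000347), -0.58 for *Ier2* (SE 0.0831, adjusted p = 0.000242) and -0.54 for *Nr4a1* (SE 0.116, adjusted p = 0.00337). All 3 calls held in each of 19 other settings. For *Junb* the litter estimate was larger in size than the genotype estimate of 0.57, a contrast that was not tested.

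*Ier2* had gene values of 882 to 1051 in the 3 second-litter FNPs and 1136 to 1856 in the 5 first-litter FNPs, and 1090 to 1114 against 1280 to 1854 in the mandibles. Every second-litter library was below every first-litter library in both tissues, as for 2.65% of all genes tested. *Nr4a1* had gene values of 78.2 to 101 in the second-litter mandibles and 109 to 170 in the first-litter mandibles. A separation in this direction was shown there by 8.93% of all genes. In the FNP its litters overlapped, at 84.0 to 112 and 111 to 161. *Junb* separated in the FNP, at 56.8 to 97.5 in the second litter and 134 to 184 in the first (8.07% of all genes did in this direction), and overlapped in the mandible.

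*Fos* had the same sign (-0.71, SE 0.317, limma, adjusted p = 0.111) and was not called. *Jun*, *Egr1* and *Arc* had estimates of 0.05, -0.06 and 0.13 (limma adjusted p from 0.674 to 0.864). Of the other immediate early genes 8 of 36 were lower and 5 higher in the second litter, among them *Ier3* (-1.04) and *Ccn2* (-0.87) lower and *Klf4* (0.99) and *Plk2* (0.50) higher, named after their values were seen. Over all genes 15.2% were called lower and 10.9% higher, so these counts are near the background. Some genes of several marker lists were called for litter too, and those named here were chosen after their values were seen. The same shares over all genes stand beside these counts, which come from short lists. Of the 5 neural crest mesenchyme markers 2 were called higher in the second litter, and of the 9 erythroid markers 1 was called higher and 1 lower. Of the surface epithelium markers 3 of 10 were higher (*Krt5* 1.23, *Krt15* 0.88, *Krt14* 0.61) and 4 lower (*Krt18* -0.48, *Krt8* -0.45, *Cldn6* -0.34, *Cldn4* -0.31) in the second litter, of the ERK feedback genes 1 of 14 was higher and 4 were lower (*Dusp5* at -1.10 and *Dusp6* at -0.47 among them), of the endothelial markers 3 of 10 were lower, and of the skeletal muscle markers 2 of 8 were higher. None of the 12 neuronal and 9 macrophage markers tested was called for litter by limma, with 3 and 1 at an unadjusted p under 0.05. The part of these cells in the litter difference of the members was not tested, and the litter cannot be told apart from whatever else differed between the embryos of the 2 litters.

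**Figure D3:**
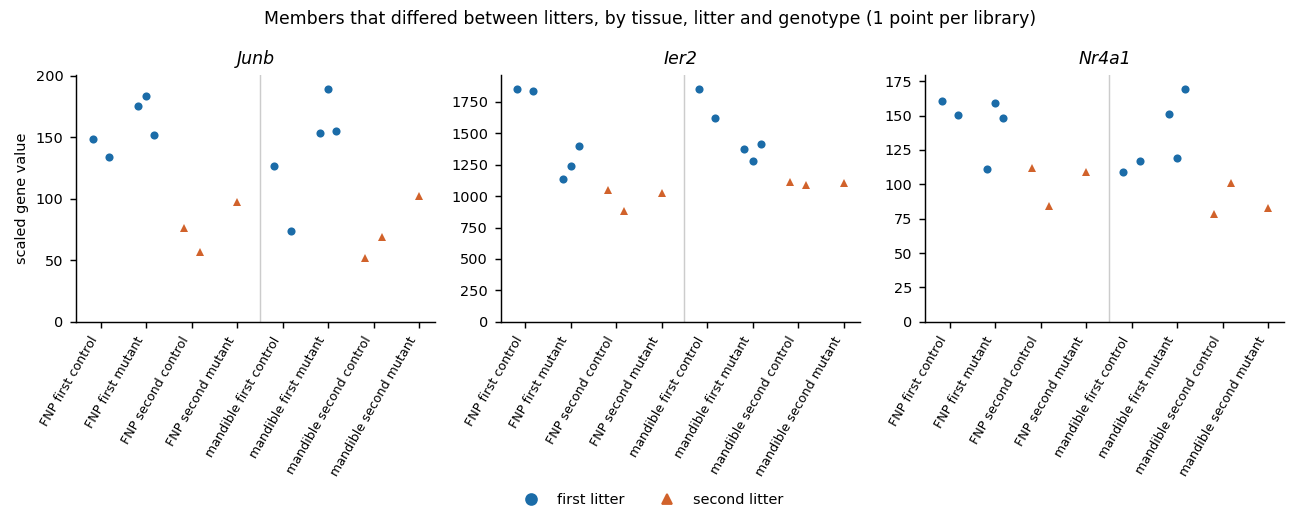
Scaled gene value (vertical axes, from 0) of *Junb*, *Ier2* and *Nr4a1* in each of the 16 libraries, by tissue, litter and genotype, 1 point per library. *Junb* is higher in mutants within each litter and tissue and lower in the second litter, while *Ier2* is lower in mutants in the first litter (1136 to 1396 against 1833 to 1856 in the FNP) and close to the controls in the second.

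The spread between libraries was the remaining property of these genes. After genotype, tissue and litter were fitted, the residual SD, which also holds any difference of response between the tissues, on the log2 scale was 0.622 for *Fos*, 0.463 for *Egr1*, 0.362 for *Arc*, 0.256 for *Junb*, 0.231 for *Nr4a1*, 0.175 for *Ier2* and 0.166 for *Jun*, with a median of 0.148 over all genes. Spread depends on level, so each was set beside genes of similar mean. By that measure *Egr1* was at the 97.3 percentile of 1934 genes, *Ier2* at the 94.1 percentile of 1498 and *Jun* at the 93.2 percentile of 1212. *Fos* was at the 71.7 percentile, *Nr4a1* at 71.9 and *Junb* at 77.1, and *Arc* at 9.20, among the less variable genes of its low level. The residual SD of *Fos* fell from 0.622 to 0.350 without embryo 4. With a term for genotype by tissue in the model, added after the data were seen, that of *Egr1* was 0.389, at the 94.9 percentile.

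**Figure D4:**
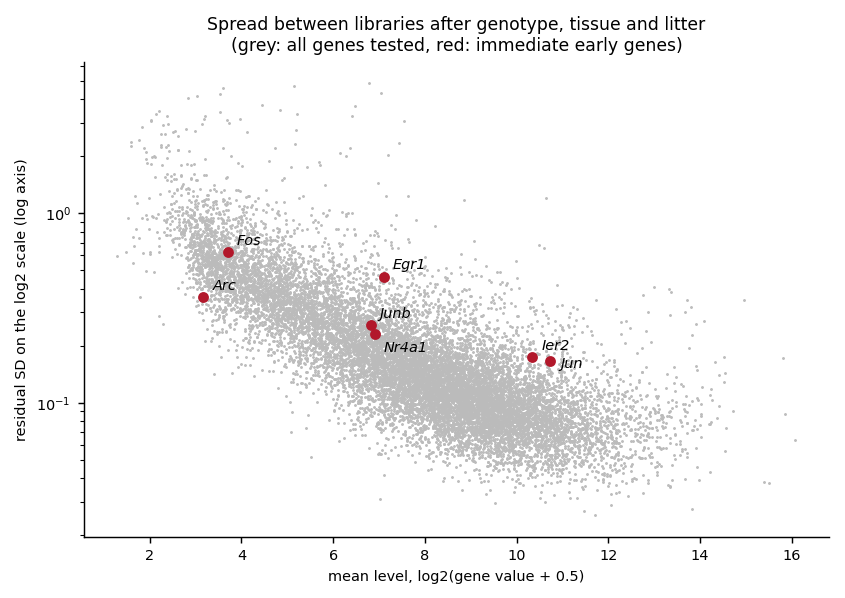
Residual SD between libraries on the log2 scale (vertical, log axis) against mean log2 level (horizontal) for all 14630 genes tested (grey) and the 7 members tested (red). *Egr1* at 0.463 lies near the upper edge of genes of its level, and *Jun* (0.166) and *Ier2* (0.175) lie high for abundant genes.

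The members moved together only in part. Over the 16 libraries, which share 8 embryos, the residuals of *Junb* and *Egr1* had a Pearson r of 0.77, followed by *Jun* with *Egr1* and *Jun* with *Junb* at 0.55 each and *Egr1* with *Ier2* at 0.53. Of the 21 pairs 17 were positive, with a median of 0.19 and a lowest value of -0.27 for *Fos* with *Arc*. The pairs of *Fos* ran from -0.27 to 0.26 and those of *Arc* from -0.27 to 0.16, and those without either from 0.19 to 0.77. These values are descriptions, and the 2 libraries of an embryo are not independent points. The residuals also hold any difference of response between the tissues, and no value over all gene pairs was set beside those of the members.

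Outside the list, the genes most like *Egr1* by this measure were *Lss* (0.89), *Gm7901* (0.86), *1110051M20Rik* (0.86), *Parm1* (0.85) and *B4gat1* (0.82), and *Junb* ranked 14 of 14629. Those most like *Fos* were *Rad52* (0.80), *Gpatch8* (0.80), *Rlim* (0.79), *Wdr26* (0.78) and *Tatdn3* (0.78), and its nearest member was *Jun*, which ranked 2206. They were picked as the highest of 14629 values over 16 libraries, so their size is partly set by that choice.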

How the data were processed

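The authors quantified polyadenylated RNA with Salmon 1.5.0 (mm10), summed transcripts to genes in sleuth 0.30.0-4 and fitted genotype with litter and, jointly, tissue. The deposited gene table holds a signal, read estimates after size factor scaling, and the deposited TPM are a signal scaled likewise that sums to 0.921 to 1.07 m. Whole reads could not be recovered, so no count model was fitted. The authors' own comparison tables were not used. Here limma 3.58.1 (R 4.3.3, variance trend) was run on log2(value + 0.5), and members below the filter had two-sided exact permutation tests of TPM over 70 arrangements. The fit was tested on simulated data. Figures were drawn with matplotlib 3.10.9.

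FNP and mandible libraries that share a number in the labels were taken as the same embryo. Their deviations from the mean of their tissue and genotype group correlated at 0.0993 to 0.234. Litter was not removed and other embryos were not compared, so these values do not test the pairing. The genes named are the 10 members, *Srf*, *Actg1*, *Vcl*, the 5 genes most like *Fos* and *Egr1*, and up to 3 per list called for genotype. The neural crest mesenchyme markers are named as a whole list. Other genes given with a value, among them *Syt1*, *Tubb3* and the genes named for litter, were chosen after their values were seen. The members and lists were chosen with earlier results of these data known. Coordinates are GENCODE vM21 on GRCm38, and start site windows are RefSeq GRCm38.p6.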

Additional observations from a re-analysis of the deposited data

Results flagged for a closer look

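Among the 40 groups of 4 libraries (10 members in 4 groups), 4 single libraries lay far from the other 3 of their group. About 1 in 20 groups, that is 2, is the number for independent, normally distributed values. TPM near 0 and groups that share libraries need not follow it. *Fos* was 10.9 TPM in the FNP of mutant embryo 4, beside 1.73 to 2.71 TPM in the other mutants. *Egr2* was 0.10 TPM in the same library, where the other 3 mutant FNPs were listed at 0, and 0.230 TPM in the FNP of control embryo 1. With 3 of 4 libraries at 0, the remaining library is flagged at any value above 0. *Jun* was 32.4 TPM in the mandible of mutant embryo 5, below the other mutants at 41.7 to 42.2 TPM. No member was called for a difference of response between the tissues.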

How the results depend on the processing

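The *Srf*, *Actg1* and *Vcl* calls and the litter calls of *Junb*, *Ier2* and *Nr4a1* held in every setting run. The number of members called in the joint model was 2 and moved to 1 with a mean value of at least 50, no variance trend, no litter term or the replicate block with the embryo as a random block, and to 0 with only the Cre-carrying controls, only those without Cre or the tissues summed per embryo. Without 1 embryo at a time it was 1 to 3, the mandible count 0 to 1 and the tissue count 1 to 2, which was also 1 with a mean value of at least 50, where *Arc* is not tested. The replicate block by embryo changed the calls of *Junb* and, for tissue, *Egr1*, and no other, while summing the tissues per embryo ended those of *Arc* and *Junb* (adjusted p = 0.0813 and 0.154).

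Estimates near 0 changed sign. *Jun* in the joint model was 0.0163 with equal library totals and 0.0235 with only controls without Cre, and -0.0558 to 0.0125 without 1 embryo at a time. *Nr4a1* in the FNP was 0.00134 with equal totals, 0.0849 with no litter term, 0.0781 with only controls without Cre and -0.169 to 0.0589 without 1 embryo. *Egr1* in the FNP was 0.0463 with only controls without Cre and -0.588 to 0.0389 without 1 embryo. For litter, *Egr1* was 0.00155 with equal totals and -0.33 to 0.21 without 1 embryo, *Arc* -0.00934 in control embryos only and -0.00934 to 0.28 without 1 embryo, and *Jun* -0.00487 with the tissues summed per embryo. The last 2 settings for litter were added after the data were seen. *Ier2* in the interaction was -0.0181 to 0.142 without 1 embryo. The causes were not tested. Depth is not kept in the deposited values, which limits the low members *Fosb*, *Egr2*, *Egr3* and *Arc*.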
